A study of Mus musculus with 30 samples.

Results

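The genes described here are 54 interferon-stimulated genes with antiviral roles. The list was given by name and not by a threshold on these data, but it was chosen with earlier results of these data known. They make up 54 of the 48820 genes in the count table, all 54 were found in it, and all 54 passed the filter on low counts in both tissues. The filter needs counts in some libraries only, so passing it does not show that a member was detected in saline. For the account they were sorted into 9 groups by role, from the oligoadenylate synthetases and RNA sensors to surface proteins. For 10 members with at most 30 counts over the saline libraries of a tissue, ratios of pooled counts are given with exact 95% intervals, which cover counting error alone.

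Interferons are signalling proteins that cells release when they sense viral or bacterial products. They act through cell surface receptors and JAK kinases on a transcription factor complex that contains Irf9 and binds an interferon-stimulated response element (ISRE) in the promoters of target genes. The products of these genes sense foreign RNA, block its translation, tag proteins with ISG15, alter nucleotide pools or keep viruses from entering and leaving cells. In the brain, microglia, endothelium, astrocytes and neurons can all carry out this response. Lipopolysaccharide (LPS), a component of the outer membrane of Gram-negative bacteria, can set it off from the periphery through Toll-like receptor signalling.

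The libraries came from wild-type adult male C57BL/6J mice, an inbred strain, of 8 to 12 weeks and about 30 g, in a model of Gulf War Illness. Every mouse, controls included, had taken corticosterone (CORT, a stress hormone) at 200 mg/L with 0.6% ethanol in its drinking water for 7 days. On day 8 it was injected once with diisopropyl fluorophosphate (DFP, an organophosphate inhibitor of acetylcholinesterase) at 4 mg/kg, and it then had CORT on alternate weeks until week 5. Mice then received saline or subcutaneous LPS at 0.5 mg/kg. Each tissue, hippocampus or frontal cortex, gave 3 libraries from mice killed 6 h after saline, and 4 libraries from each of the times 6, 12 and 24 h after LPS. Saline tissue was taken at 6 h only, so the 12 h and 24 h comparisons also differ in collection time. The 3 comparisons of a tissue share their saline libraries. All groups share the CORT and DFP history, and mice free of it were not analysed here.

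Library totals ran from 16826882 to 33034295 counts. Markers of the hippocampus (4 genes, summed 230.2 to 304 CPM in hippocampal and 87.5 to 168 CPM in cortical libraries) and of the frontal cortex (4 genes, 96.4 to 140.5 and 362 to 599 CPM) placed each library with its labelled tissue. Levels are in CPM, counts relative to the library total after scaling by the trimmed mean of M values (TMM) within each tissue. The sum of 5 choroid plexus markers ranged widely, from 9.14 to 2348 CPM, and was highest in hippocampal LPS 12 h mouse A261, hippocampal saline mouse A222 (1261 CPM) and cortical saline mouse A224 (1034 CPM).

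The ISRE core, spelled GAAANNGAAA and searched on both strands, was looked for in the 250 bases before each start site in the RefSeq promoter table (GRCm38.p6), which had entries for 42 of the 54 genes. It was found in 14 of these 42 genes (33.3%), against 936 of 27025 genes with an entry (3.46%). The core followed by C, a subset of these matches, was found in 9 of 42 (21.4%), against 0.796% of all genes. The gamma-activated site core TTCNNNGAA was found in 5 of 42 (11.9%), against 8.13%. A match is a run of letters and not a measured binding site. The following 80-base stretches are shown because they belong to members of 4 role groups that rose in at least 4 of the 6 comparisons with saline, and let the place and spacing of the element be compared. Capitals mark ISRE cores on either strand, so that a core on the opposite strand reads TTTC before and after its spacer. Each stretch is written 5′ to 3′ on the strand of its gene.
Oas1a: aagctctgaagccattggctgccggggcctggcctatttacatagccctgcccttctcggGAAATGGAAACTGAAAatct
Ifit1: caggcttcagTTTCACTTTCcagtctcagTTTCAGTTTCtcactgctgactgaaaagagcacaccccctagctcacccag
Ifit3: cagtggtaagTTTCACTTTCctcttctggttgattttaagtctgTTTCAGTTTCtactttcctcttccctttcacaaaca
Isg15: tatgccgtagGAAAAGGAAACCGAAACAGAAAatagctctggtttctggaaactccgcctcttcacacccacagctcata
Trim30a: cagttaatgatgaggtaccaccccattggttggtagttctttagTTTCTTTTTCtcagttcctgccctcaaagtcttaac
Rsad2: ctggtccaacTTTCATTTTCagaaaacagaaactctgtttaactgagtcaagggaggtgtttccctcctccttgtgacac
Bst2: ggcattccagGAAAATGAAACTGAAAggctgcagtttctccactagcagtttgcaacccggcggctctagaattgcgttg
The stretch of Oas1a (chr5:120907526-120907605, minus strand) holds overlapping cores that start 14 bases before the start site. Those of Ifit1 (chr19:34640775-34640854, plus strand) and Ifit3 (chr19:34583363-34583442, plus strand) each hold a pair of separate cores, the nearer one 85 and 122 bases before the start. The 80 bases shown for Ifit3 are letter for letter those of its neighbour Ifit3b (chr19:34607759-34607838, plus strand). Isg15 (chr4:156200827-156200906, minus strand) carries overlapping cores in 1 run, the nearest 66 bases from the start. Trim30a (chr7:104465194-104465273, minus strand) and Rsad2 (chr12:26456503-26456582, minus strand) carry 1 core each, 36 and 120 bases from the start. Bst2 (chr8:71537533-71537612, minus strand) has an overlapping pair 124 bases from it. The other 6 genes with the core were Apobec3, Ifitm2, Lgals9, Oas3, Slfn5 and Slfn8.

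LPS was followed by higher levels of most of these genes in both tissues, and none of the 54 was called lower against saline at any time. The test was edgeR's quasi-likelihood test on the 15 libraries of a tissue, two-sided. A gene is called when its p, adjusted by Benjamini-Hochberg over all genes tested, is under 0.05. In the hippocampus 35 members were higher at 6 h (of all genes tested 2.96% were higher and 2.15% lower), 49 at 12 h (6.07% and 6.28%) and 50 at 24 h (6.76% and 6.6%). In the cortex 24 members were higher at 6 h (2.3% and 1.2%), 45 at 12 h (4.13% and 2.99%) and 43 at 24 h (3.73% and 2.38%). The median log2 fold change over the 54 genes was 0.94, 1.18 and 1.32 at 6, 12 and 24 h in the hippocampus. It was 0.86, 1.23 and 1.25 in the cortex, and over all genes tested the 6 medians lay between -0.0036 and 0.0132. The medians are the same with the pooled-count ratios in place of the fitted values. At least a 2-fold rise, called or not, was measured for 26, 35 and 35 members in the hippocampus and 24, 34 and 33 in the cortex. Of all genes tested, 1.90%, 2.72% and 3.14% in the hippocampus changed at least 2-fold, rises and falls together. In the cortex these shares were 2.38%, 2.95% and 3.16%. In bulk tissue, more or fewer cells of a type and more or less RNA per cell cannot be told apart. All levels here are subject to that.

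Of the 54 genes, 23 were called higher in all 6 comparisons with saline, among them Oas1a, Zbp1, Ifit1, Ifit3, Isg15, Trim30a, Parp14, Bst2, Ifitm3, Ly6a and Ifi44. Another 8 were called in 5 comparisons, 12 in 4, 4 in 3, 3 in 2 and 2 in 1, and Znfx1 and Ly6e were called in none. The share of all genes called in as many comparisons was not counted. For all 6 it can be no more than the 2.3% called higher in the cortex at 6 h. Calls within a tissue are not independent, since they share saline libraries. With each library left out in turn, 24 of 35, 46 of 49 and 44 of 50 calls were kept throughout in the hippocampus at 6, 12 and 24 h. The cortex kept 19 of 24, 36 of 45 and 30 of 43. Without hippocampal A222 and A261, the libraries with the highest choroid plexus sums, 28, 46 and 45 members were called at 6, 12 and 24 h. In a limma-voom fit over both tissues with the mouse as a replicate block, 11 hippocampal calls against saline were lost. At 6 h they were Eif2ak2 (adjusted p = 0.171), Ddx58 (0.0972), Parp9 (0.092), Slfn2 (0.0543), Xaf1 (0.0542) and Nmi (0.0505). At 12 h they were Nmi (0.0833) and Uba7 (0.0502), and at 24 h Ifi27 (0.246), Oas2 (0.0892) and Trim21 (0.058). No cortical call against saline was lost in it. Each library has its own mouse code within a tissue, and the p values measure the spread between these libraries.

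**Figure D1:**
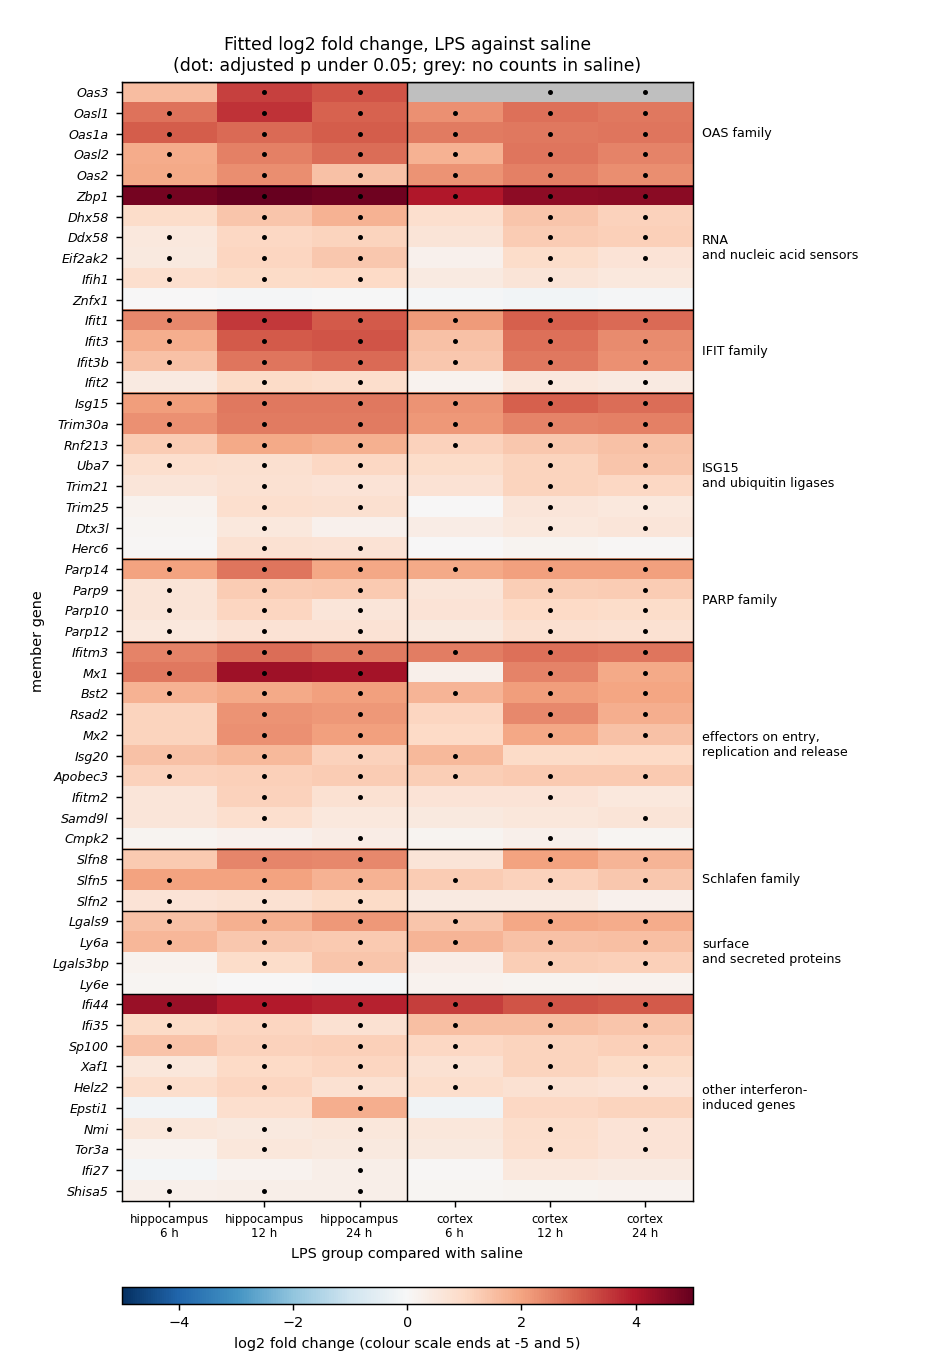
Log2 fold change of each of the 54 genes (rows, sorted by role) in the 6 comparisons of LPS with saline (columns: hippocampus and cortex at 6, 12 and 24 h); a dot marks an adjusted p under 0.05 by edgeR, and grey marks Oas3 in the cortex, which had no saline counts. The columns carry 35, 49 and 50 dots in the hippocampus and 24, 45 and 43 in the cortex, and the rows of Znfx1 and Ly6e carry none.

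The oligoadenylate synthetases make short oligoadenylates that switch on the RNA-cutting enzyme RNase L. Of the 5 measured members (Oas1a, Oas2, Oas3, Oasl1 and Oasl2), 4, 5 and 5 were higher at 6, 12 and 24 h in the hippocampus and 4, 5 and 5 in the cortex. Of the members with an ISRE core, Oas1a (chr5:120896256-120907521, minus strand) is the one whose core lies closest to its start site.

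Oas1a read 0.0347, 0.17 and 0.461 CPM in saline, 1.17, 2.25, 1.68 and 2.09 at 6 h, 1.71, 1.69, 1.02 and 1.88 at 12 h and 1.89, 1.44, 1.4 and 2.37 at 24 h in the hippocampus. Levels in the cortex were 0.151, 0.607 and 0.627 CPM in saline, 1.89, 3.01, 4.55 and 2.08 at 6 h, 2.26, 2.07, 1.81 and 5.88 at 12 h and 4.25, 3.27, 2.27 and 2.47 at 24 h. All 24 LPS libraries lay above the saline libraries of their tissue, and cortical A261 was the highest of all at 12 h. Over pooled counts the hippocampal ratio to saline was 8.43-fold (95% interval 5.16 to 14.6) at 6 h, 7.49-fold (95% interval 4.57 to 13) at 12 h and 8.53-fold (95% interval 5.22 to 14.8) at 24 h. Hippocampal saline mouse A226 held 12 of the 18 saline counts, and without it these ratios were 17.4, 15.5 and 17.6. Without saline A222 they were 5.88, 5.22 and 5.95, and without saline A224 7.62, 6.76 and 7.71. In the cortex the fitted log2 fold change was 2.59 ± 0.55 (adjusted p = 0.0151) at 6 h, 2.66 ± 0.55 (adjusted p = 0.0068) at 12 h and 2.67 ± 0.55 (adjusted p = 0.00739) at 24 h, and the 6 h call was lost without saline A223 or saline A226 (adjusted p up to 0.0682). About 32.4% of Oas1a's 150-base windows also occur in Oas1g, so its reads may have been divided between them.

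Oas2 (chr5:120730333-120749853, minus strand) read 0.381, 0.204 and 0.0768 CPM in saline, 0.908, 0.958, 0.918 and 0.535 at 6 h, 0.831, 1.39, 1.1 and 1.27 at 12 h and 0.485, 0.744, 0.371 and 0.91 at 24 h in the hippocampus. Cortical levels were 0.251, 0.182 and 0.157 CPM in saline, 0.487, 1.4, 0.892 and 0.947 at 6 h, 1.35, 0.913, 0.301 and 1.81 at 12 h and 0.908, 0.99, 0.954 and 1.07 at 24 h. LPS and saline libraries overlapped in the hippocampus at 24 h, where A276 was below saline A222, and in no other comparison with saline. The pooled ratio in the hippocampus was 3.81-fold (95% interval 2.28 to 6.68), 5.25-fold (95% interval 3.2 to 9.08) and 2.85-fold (95% interval 1.67 to 5.09) at 6, 12 and 24 h. Without saline A222, which held the most saline counts, it was 5.97, 8.22 and 4.46. Without saline A226 it was 2.93, 4.04 and 2.19, and without saline A224 3.64, 5.01 and 2.72. The hippocampal call at 24 h was lost without saline A224, saline A226, LPS A275 or LPS A278 (adjusted p up to 0.102). In the cortex the ratio was 4.95-fold (95% interval 2.72 to 9.73), 6.33-fold (95% interval 3.54 to 12.3) and 5.43-fold (95% interval 3.01 to 10.6). The cortical call was lost at 6 h without saline A223, saline A224 or saline A226 (adjusted p up to 0.151) and at 24 h without saline A226 (adjusted p = 0.0775).

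Oas3 (chr5:120753098-120777661, minus strand) was the least abundant member per length in every LPS group. It read 0, 0.0341 and 0.0384 CPM in saline, 0.0757, 0.125, 0 and 0.107 at 6 h, 0.467, 0.497, 0.117 and 0.204 at 12 h and 0.145, 0.279, 0.165 and 0.41 at 24 h in the hippocampus. Across cortical libraries it read 0, 0 and 0 CPM in saline, 0.0541, 0.0537, 0.0469 and 0.189 at 6 h, 0.0821, 0.529, 0.552 and 0.617 at 12 h and 0.478, 0.347, 0.0909 and 0.327 at 24 h. Hippocampal LPS libraries overlapped with saline at 6 h alone. The 3 cortical saline libraries held no count of it, so cortical ratios were taken against 3 counts over the group. At 6 h, which was not called, this ratio was 2.03, and the exact 95% interval began at 1.25. The cortical ratio was 10.49 at 12 h (interval from 8.13) and 7.36 at 24 h (interval from 5.57). The hippocampal ratio rested on 2 saline counts and was 3.38-fold (95% interval 0.644 to 33.4) at 6 h, which was not called. It was 13.1-fold (95% interval 3.29 to 114) at 12 h and 10.8-fold (95% interval 2.66 to 95) at 24 h. Calls at 24 h were lost in the hippocampus without saline A222 (adjusted p = 0.0783) and in the cortex without saline A226 (adjusted p = 0.0781). Without saline A222 the hippocampal ratios were 2.23, 8.62 and 7.14. Without saline A226 the cortical ratios against 3 counts were 1.08, 5.58 and 3.92, with 95% intervals from 0.666, 4.32 and 2.96.

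Oasl1, which lacks the enzyme activity, and its relative Oasl2 were called in all 6 comparisons, with log2 fold changes of 1.73 to 3.60. Oasl1 lost its hippocampal 6 h call without saline A224 (adjusted p = 0.0578). Its pooled ratio was 7.09, 13 and 8.31 in the hippocampus, and 4.62, 8.51 and 5.43 without saline A224. In the cortex that ratio was 5.0, 7.21 and 6.64, and 8.51, 12.3 and 11.3 without saline A226. Without saline A223 it was 3.77, 5.44 and 5.01, and without saline A224 5.08, 7.32 and 6.74.

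The second group senses nucleic acids. Ifih1 (MDA5) and Ddx58 (RIG-I) bind viral RNA and signal for interferon, Dhx58 (LGP2) tunes them, Eif2ak2 (PKR) halts translation on double-stranded RNA, Zbp1 recognises Z-form nucleic acids and can trigger cell death, and Znfx1 is an RNA helicase. Of these 6, the hippocampus had 4, 5 and 5 higher at 6, 12 and 24 h and the cortex 1, 5 and 4.

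Zbp1 (chr2:173206612-173218923, minus strand) had the largest fitted fold change of the 54 genes in every comparison with saline apart from Oas3 in the cortex. It read 0.0693, 0.0682 and 0 CPM in saline, 1.44, 1.54, 1.53 and 1.23 at 6 h, 1.97, 2.98, 1.84 and 2.37 at 12 h and 1.65, 1.12, 1.36 and 2.05 at 24 h in the hippocampus. Frontal cortex libraries gave 0, 0.182 and 0.125 CPM in saline, 1.35, 1.45, 2.63 and 1.42 at 6 h, 2.59, 2.5, 1.2 and 3.33 at 12 h and 2.49, 1.83, 2.09 and 3.5 at 24 h. The lowest LPS library stood at 1.12 CPM and the highest saline library at 0.182 CPM. The 3 hippocampal saline libraries held 2, 2 and 0 counts. At 6, 12 and 24 h the pooled ratio was 30.9-fold (95% interval 11.8 to 115), 49.2-fold (95% interval 18.9 to 182) and 33.5-fold (95% interval 12.8 to 125). Without saline A226, the library at 0, the ratios were 21.3, 33.9 and 23.0. In the cortex the ratio was 17.1-fold (95% interval 8.1 to 43.4), 25.4-fold (95% interval 12.1 to 63.8) and 25.5-fold (95% interval 12.2 to 64.2).

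Ifih1 (chr2:62595798-62646255, minus strand) read 2.6, 2.35 and 3.07 CPM in saline, 4.96, 4.92, 3.72 and 5.56 at 6 h, 4.93, 6.36, 3.83 and 5.55 at 12 h and 5.38, 4.74, 5.03 and 6.28 at 24 h in the hippocampus. Its cortical levels were 6.33, 4.25 and 6.55 CPM in saline, 7.04, 8.37, 6.71 and 9.14 at 6 h, 8.17, 8.6, 9.43 and 10.1 at 12 h and 9.13, 8.81, 6.68 and 8.73 at 24 h. Its saline level was higher in the cortex, and LPS libraries lay above saline libraries at every time in both tissues. The hippocampal log2 fold change was 0.84 ± 0.17 (adjusted p = 0.00261) at 6 h, 0.95 ± 0.17 (adjusted p = 3.79e-04) at 12 h and 1.0 ± 0.17 (adjusted p = 1.72e-04) at 24 h. That of the cortex was 0.43 ± 0.16 (adjusted p = 0.145) at 6 h, 0.65 ± 0.15 (adjusted p = 0.0129) at 12 h and 0.53 ± 0.16 (adjusted p = 0.0521) at 24 h, with a call at 12 h alone that was lost without saline A224 or LPS A261 (adjusted p up to 0.0709).

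Ddx58 (chr4:40203773-40239828, minus strand) read 3.81, 3.44 and 4.49 CPM in saline, 5.26, 5.54, 5.71 and 5.83 at 6 h, 7.38, 9.48, 8.26 and 7.1 at 12 h and 7.99, 7.48, 8.5 and 9.42 at 24 h in the hippocampus. The cortical libraries read 3.47, 3.58 and 3.79 CPM in saline, 3.68, 7.35, 5.68 and 5.83 at 6 h, 8.91, 7.35, 7.72 and 10.6 at 12 h and 9.13, 8.81, 6.82 and 8.03 at 24 h. Groups were apart in all but the cortical 6 h comparison, where A240 lay inside the saline range. The log2 fold change was 0.51 ± 0.13 (adjusted p = 0.0153) at 6 h, 1.04 ± 0.12 (adjusted p = 2.00e-06) at 12 h and 1.10 ± 0.12 (adjusted p = 9.88e-07) at 24 h in the hippocampus. The 6 h call was lost without saline A222 or saline A224 (adjusted p up to 0.134). The change was 0.64 ± 0.19 (adjusted p = 0.0778) at 6 h, 1.25 ± 0.19 (adjusted p = 2.18e-04) at 12 h and 1.17 ± 0.19 (adjusted p = 4.93e-04) at 24 h in the cortex.

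Eif2ak2 (chr17:78852564-78882573, minus strand) read 4.26, 3.99 and 2.92 CPM in saline, 4.81, 5.38, 5.2 and 5.77 at 6 h, 6.91, 9.14, 7.04 and 8.08 at 12 h and 8.38, 9.44, 8.83 and 11 at 24 h in the hippocampus. Levels in the cortex were 4.32, 3.58 and 4.95 CPM in saline, 3.74, 5.85, 4.93 and 5.35 at 6 h, 6.69, 7.4, 7.72 and 10.53 at 12 h and 8.84, 7.23, 5.86 and 5.83 at 24 h. The hippocampal mean was highest at 24 h, and in the cortex A240 and A242 at 6 h fell within the saline range. Against saline, the log2 fold change was 0.50 ± 0.14 (adjusted p = 0.0395) at 6 h, 1.06 ± 0.14 (adjusted p = 6.81e-06) at 12 h and 1.33 ± 0.13 (adjusted p = 2.16e-07) at 24 h in the hippocampus. The cortical change was 0.20 ± 0.20 (adjusted p = 0.60) at 6 h, 0.90 ± 0.19 (adjusted p = 0.00523) at 12 h and 0.68 ± 0.19 (adjusted p = 0.0409) at 24 h. Calls were lost in the hippocampus at 6 h without saline A224, saline A226, LPS A241, LPS A242 or LPS A243 (adjusted p up to 0.192) and in the cortex at 24 h without saline A223, saline A224, saline A226, LPS A274 or LPS A275 (adjusted p up to 0.161). Dhx58 was called at 12 h and 24 h in both tissues, with log2 fold changes of 1.38 and 1.72 in the hippocampus and 1.39 and 1.17 in the cortex. Its cortical calls were lost at 12 h without saline A224 (adjusted p = 0.0505) and at 24 h without saline A223, saline A224, saline A226, LPS A274, LPS A276 or LPS A278 (adjusted p up to 0.136).

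Znfx1 (chr2:167035793-167063015, minus strand) was the exception of the group. It read 61.8, 52.6 and 54 CPM in saline, 59.5, 54.5, 54.9 and 57.4 at 6 h, 53, 59.9, 51.7 and 53.3 at 12 h and 55.5, 58.4, 50.5 and 55.8 at 24 h in the hippocampus. Cortical levels were 88.1, 85.8 and 99.1 CPM in saline, 80.7, 98.6, 75.6 and 95.9 at 6 h, 92, 89, 71.8 and 76.1 at 12 h and 89.4, 89.2, 82.9 and 84.6 at 24 h. No LPS library lay above the highest saline library of its tissue. Its log2 fold changes ran from -0.15 to 0.01, with adjusted p of 0.44 or more.

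The IFIT proteins bind viral RNA by its cap or end and hold back its translation. The 4 genes lie close together on chromosome 19, and 3, 4 and 4 of them were higher at 6, 12 and 24 h in the hippocampus and 3, 4 and 4 in the cortex. Their ISRE-bearing promoters are those printed for Ifit1 and Ifit3.

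Ifit1 (chr19:34640871-34650009, plus strand) read 0.901, 0.647 and 1.61 CPM in saline, 5.75, 5.63, 4.94 and 5.72 at 6 h, 14.1, 14.3, 8.45 and 11.8 at 12 h and 8.04, 7.48, 7.55 and 11.9 at 24 h in the hippocampus. Across cortical libraries it read 2.36, 0.971 and 2.1 CPM in saline, 6.98, 7.68, 9.11 and 8.95 at 6 h, 13.1, 13.8, 9.58 and 22.9 at 12 h and 15.6, 11.9, 10.3 and 15.3 at 24 h. Every LPS library lay above the saline range, and hippocampal levels at 12 h exceeded those at 6 h in each library. Its log2 fold change was 2.41 ± 0.29 (adjusted p = 5.78e-05) at 6 h, 3.53 ± 0.27 (adjusted p = 2.38e-07) at 12 h and 3.07 ± 0.28 (adjusted p = 1.36e-06) at 24 h in the hippocampus. The fold change was 2.13 ± 0.32 (adjusted p = 0.00101) at 6 h, 2.99 ± 0.31 (adjusted p = 1.77e-05) at 12 h and 2.82 ± 0.31 (adjusted p = 3.72e-05) at 24 h in the cortex.

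Ifit3 (chr19:34583531-34588731, plus strand) was the most abundant of the 4 after LPS, in CPM. It read 3.5, 2.62 and 4.72 CPM in saline, 11.5, 12.9, 12.9 and 12.9 at 6 h, 36.9, 34.7, 23.3 and 26 at 12 h and 26.6, 25.1, 30.4 and 44.9 at 24 h in the hippocampus. Frontal cortex libraries gave 6.79, 5.04 and 7.96 CPM in saline, 18, 19.6, 18.9 and 18.1 at 6 h, 36.4, 32.9, 40.03 and 70.8 at 12 h and 43.8, 36.8, 27.8 and 31.7 at 24 h. The 6 h, 12 h and saline libraries formed separate ranges in both tissues, and cortical A261 stood highest. On the log2 scale, the fold change was 1.80 ± 0.29 (adjusted p = 0.00265) at 6 h, 3.06 ± 0.28 (adjusted p = 1.20e-05) at 12 h and 3.14 ± 0.28 (adjusted p = 8.23e-06) at 24 h in the hippocampus. Its cortical value was 1.47 ± 0.27 (adjusted p = 0.00692) at 6 h, 2.74 ± 0.27 (adjusted p = 2.70e-05) at 12 h and 2.38 ± 0.27 (adjusted p = 9.64e-05) at 24 h.

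Ifit3b (chr19:34607970-34613401, plus strand), a near copy of Ifit3, read 2.56, 2.22 and 3.46 CPM in saline, 6.7, 8.71, 7.03 and 7.38 at 6 h, 21.7, 20.01, 13.9 and 14 at 12 h and 15.1, 17.5, 18.8 and 26.8 at 24 h in the hippocampus. Its cortical levels were 4.42, 2.67 and 4.86 CPM in saline, 10.2, 10.3, 11.2 and 10.4 at 6 h, 18.7, 19.4, 22.5 and 41 at 12 h and 26.1, 20.4, 15.6 and 18.8 at 24 h. The pattern over libraries was that of Ifit3 at a lower level. Since 18.5% of the 150-base windows of Ifit3 and 16.0% of those of Ifit3b are shared, their counts are not independent. Relative to saline, the log2 fold change was 1.45 ± 0.27 (adjusted p = 0.00527) at 6 h, 2.66 ± 0.25 (adjusted p = 8.17e-06) at 12 h and 2.84 ± 0.25 (adjusted p = 3.81e-06) at 24 h in the hippocampus. For the cortex it was 1.36 ± 0.30 (adjusted p = 0.0229) at 6 h, 2.63 ± 0.30 (adjusted p = 7.11e-05) at 12 h and 2.30 ± 0.30 (adjusted p = 2.69e-04) at 24 h. The cortical 6 h call was lost without saline A223, saline A224, saline A226 or LPS A242 (adjusted p up to 0.0864).

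Ifit2 (chr19:34550694-34576419, plus strand) read 6.72, 6.68 and 6.88 CPM in saline, 9.38, 8.71, 8.72 and 10.1 at 6 h, 14.2, 16.5, 10.1 and 12.1 at 12 h and 11.1, 11.2, 12.6 and 14.5 at 24 h in the hippocampus. The cortical libraries read 13.9, 11 and 13.8 CPM in saline, 14.6, 16.6, 12.4 and 14.8 at 6 h, 16.7, 16.6, 19.2 and 21.6 at 12 h and 20.9, 15.8, 16 and 17.7 at 24 h. Its saline level in CPM was already above that of the other 3, although per length of exon Ifit3 was higher in both tissues. LPS libraries overlapped with saline in the cortex at 6 h alone. The log2 fold change was 0.45 ± 0.13 (adjusted p = 0.0574) at 6 h, 0.96 ± 0.13 (adjusted p = 2.06e-05) at 12 h and 0.87 ± 0.13 (adjusted p = 5.99e-05) at 24 h in the hippocampus. That of the cortex was 0.17 ± 0.13 (adjusted p = 0.463) at 6 h, 0.52 ± 0.13 (adjusted p = 0.0155) at 12 h and 0.44 ± 0.13 (adjusted p = 0.0437) at 24 h. Neither 6 h value was called, and the cortical calls were lost at 12 h without saline A224 or LPS A261 (adjusted p up to 0.0856) and at 24 h without any 1 of its 7 libraries (adjusted p up to 0.194).

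**Figure D2:**
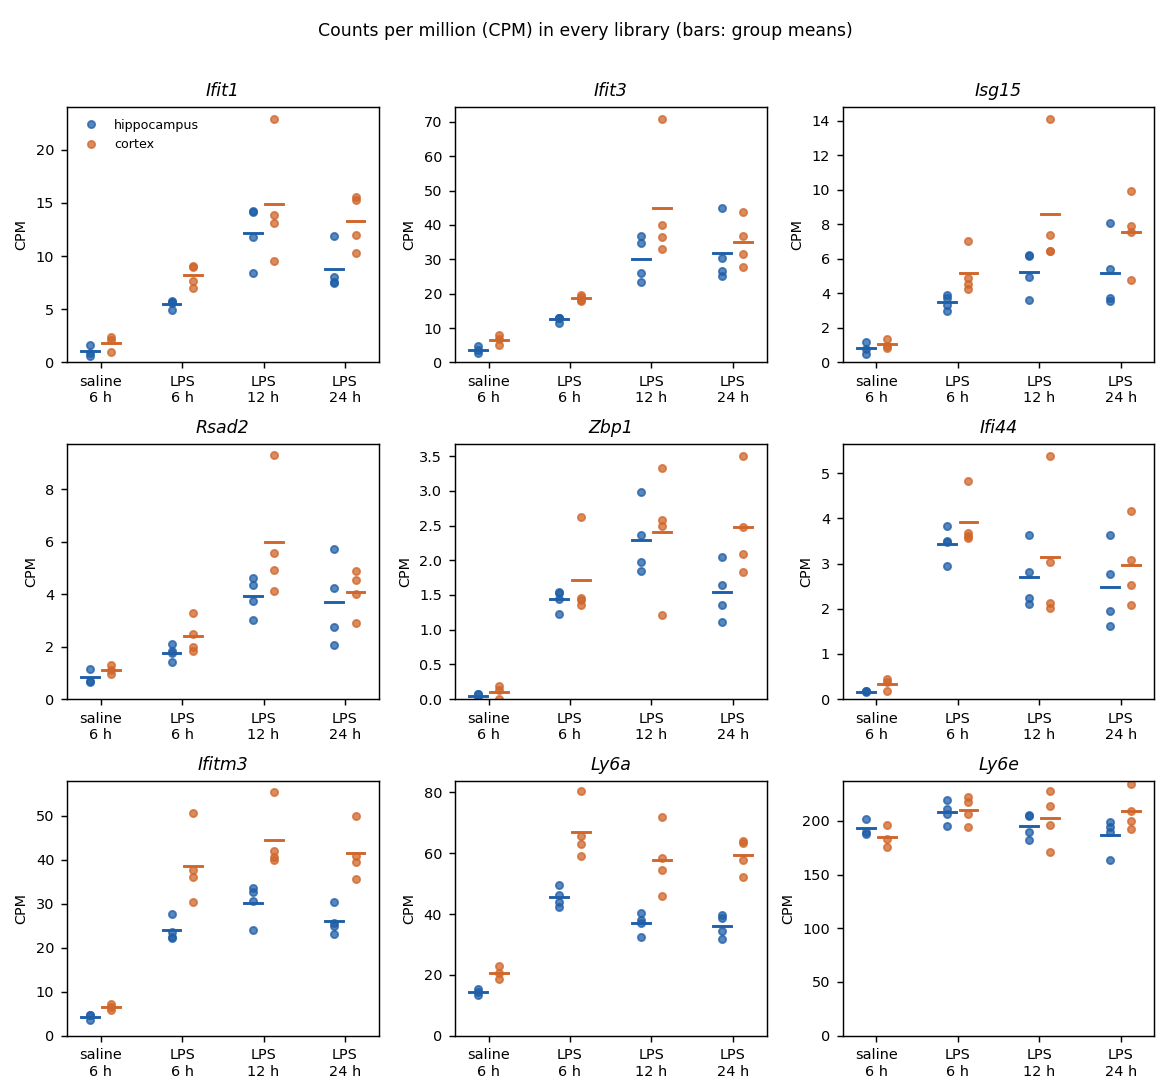
CPM in every library (points) and group means (bars) for Ifit1, Ifit3, Isg15, Rsad2, Zbp1, Ifi44, Ifitm3, Ly6a and Ly6e, in saline and 6, 12 and 24 h after LPS, for each tissue. For all genes but Ly6e the LPS points lie above the saline points, and the Ly6e points lie between 163 and 234 CPM in every group.

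ISG15 is a ubiquitin-like protein joined to other proteins by the activating enzyme Uba7 and ligases such as Herc6. With the ubiquitin ligases Trim21, Trim25, Trim30a, Dtx3l and Rnf213, the group has 8 members, of which 4, 8 and 7 were higher at 6, 12 and 24 h in the hippocampus and 3, 7 and 7 in the cortex.

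Isg15 (chr4:156199424-156200818, minus strand) read 0.797, 0.511 and 1.19 CPM in saline, 2.99, 3.33, 3.92 and 3.74 at 6 h, 6.23, 6.16, 3.64 and 4.98 at 12 h and 3.59, 5.39, 3.75 and 8.06 at 24 h in the hippocampus. Levels in the cortex were 0.955, 0.85 and 1.35 CPM in saline, 4.87, 4.24, 7.04 and 4.55 at 6 h, 6.44, 7.4, 6.47 and 14.1 at 12 h and 9.94, 7.57, 4.77 and 7.89 at 24 h. Every LPS library was above every saline library, and cortical A261 at 12 h stood far above the other 3 libraries of its group. Against saline, the log2 fold change was 2.07 ± 0.34 (adjusted p = 9.36e-04) at 6 h, 2.65 ± 0.33 (adjusted p = 2.86e-05) at 12 h and 2.65 ± 0.33 (adjusted p = 2.51e-05) at 24 h in the hippocampus. The change was 2.24 ± 0.37 (adjusted p = 0.00183) at 6 h, 2.98 ± 0.36 (adjusted p = 6.18e-05) at 12 h and 2.78 ± 0.36 (adjusted p = 1.36e-04) at 24 h in the cortex.

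Herc6 (chr6:57581000-57664632, plus strand) read 2.63, 2.01 and 2.27 CPM in saline, 2.31, 2.54, 2.45 and 2.41 at 6 h, 4.73, 4.17, 3.17 and 3.76 at 12 h and 3.73, 3.81, 2.89 and 4.87 at 24 h in the hippocampus. Cortical levels were 11.1, 8.8 and 9.81 CPM in saline, 10.503, 9.61, 9.48 and 10.2 at 6 h, 11.7, 12.9, 8.43 and 11.1 at 12 h and 10.4, 10.1, 10.3 and 10.3 at 24 h. The cortex was higher than the hippocampus in every group, and the cortical groups overlapped at every time. Hippocampal libraries at 12 h and 24 h lay above saline and those at 6 h did not. Its log2 fold change was 0.07 ± 0.18 (adjusted p = 0.924) at 6 h, 0.77 ± 0.17 (adjusted p = 0.0034) at 12 h and 0.73 ± 0.17 (adjusted p = 0.00536) at 24 h in the hippocampus. The cortical change was 0.01 ± 0.12 (adjusted p = 0.988) at 6 h, 0.15 ± 0.12 (adjusted p = 0.511) at 12 h and 0.05 ± 0.12 (adjusted p = 0.898) at 24 h, with no call. Of its 150-base windows 8.69% also occur in the predicted gene Gm45193.

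Trim30a (chr7:104409025-104465193, minus strand), which restrains Toll-like receptor signalling, had log2 fold changes of 2.18 to 2.59 and was called in all 6 comparisons. It read 0.624, 0.988 and 1.57 CPM in saline, 5.45, 5.33, 5.05 and 4.81 at 6 h, 7.01, 6.6, 5.09 and 6.74 at 12 h and 6.69, 5.02, 4.46 and 9.33 at 24 h in the hippocampus. Across cortical libraries it read 1.21, 1.21 and 1.5 CPM in saline, 4.39, 7.03, 6.71 and 6.06 at 6 h, 6.44, 7.11, 5.67 and 10.49 at 12 h and 8.6, 6.68, 6.45 and 8.82 at 24 h. All LPS libraries were above the saline libraries. Rnf213, a very large ligase, was also called in all 6, with log2 fold changes of 1.16 to 1.88. Trim25, which modifies RIG-I, was not called at 6 h (0.18 and 0.03 in hippocampus and cortex) and was called at 12 h and 24 h, 0.85 ± 0.12 (adjusted p = 1.89e-05) and 0.78 ± 0.12 (adjusted p = 4.75e-05) in the hippocampus. Its cortical calls were lost at 12 h without saline A224 or LPS A261 (adjusted p up to 0.0561) and at 24 h without saline A223, saline A224, saline A226, LPS A274 or LPS A275 (adjusted p up to 0.159). Uba7, Trim21 and Dtx3l had log2 fold changes from 0.10 to 1.40. They were called in 5, 4 and 3 of the 6 comparisons, and 8 of these 12 calls were lost when a library was left out. Uba7 lost its hippocampal calls at 6 h without saline A222 or saline A224 (adjusted p up to 0.115) and at 12 h without saline A222, saline A224 or LPS A259 (adjusted p up to 0.10), and the cortical one at 12 h without saline A223, saline A224 or LPS A261 (adjusted p up to 0.0928). Trim21 lost its hippocampal calls at 12 h without saline A226 (adjusted p = 0.0566) and at 24 h without saline A222, saline A226 or LPS A278 (adjusted p up to 0.0855), and the cortical one at 24 h without saline A223, saline A226 or LPS A278 (adjusted p up to 0.0827). Dtx3l lost its cortical calls at 12 h without saline A223, saline A224, LPS A258, LPS A259 or LPS A261 (adjusted p up to 0.168) and at 24 h without saline A223, saline A224, LPS A275, LPS A276 or LPS A278 (adjusted p up to 0.135).

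The PARP proteins of this group transfer ADP-ribose to proteins, and Parp9 acts with the ligase Dtx3l. All 4 members were called at each time in the hippocampus, and 1, 4 and 4 in the cortex.

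Parp14 (chr16:35832874-35871544, minus strand) had the largest change. It read 1.87, 0.988 and 1.65 CPM in saline, 4.58, 8.08, 5.66 and 6.1 at 6 h, 9.66, 12.8, 7.2 and 8.74 at 12 h and 5.18, 5.3, 5.2 and 7.42 at 24 h in the hippocampus. Frontal cortex libraries gave 2.46, 1.46 and 2.23 CPM in saline, 5.36, 9.66, 6.85 and 9.33 at 6 h, 10.2, 11.3, 4.67 and 8.8 at 12 h and 9.13, 5.45, 8.73 and 11.2 at 24 h. LPS and saline libraries did not overlap, and the hippocampal mean was highest at 12 h. On the log2 scale, the fold change was 2.02 ± 0.27 (adjusted p = 1.17e-04) at 6 h, 2.67 ± 0.26 (adjusted p = 2.06e-06) at 12 h and 1.94 ± 0.27 (adjusted p = 7.86e-05) at 24 h in the hippocampus. Its cortical value was 1.90 ± 0.33 (adjusted p = 0.00327) at 6 h, 2.07 ± 0.33 (adjusted p = 8.69e-04) at 12 h and 2.05 ± 0.33 (adjusted p = 0.00106) at 24 h.

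Parp12 (chr6:39086410-39118349, minus strand) had the smallest. It read 6.76, 5.96 and 6.64 CPM in saline, 8.21, 9.0, 9.74 and 9.999 at 6 h, 10.2, 10.8, 9.43 and 11.8 at 12 h and 11.4, 9.95, 9.74 and 11.3 at 24 h in the hippocampus. Its cortical levels were 7.04, 6.37 and 7.21 CPM in saline, 9.58, 10.7, 9.25 and 9.52 at 6 h, 10.47, 11.8, 9.83 and 15.8 at 12 h and 12.9, 11.8, 9.64 and 12.6 at 24 h. Ranges were separate at every time, although the change was less than 2-fold. Relative to saline, the log2 fold change was 0.51 ± 0.10 (adjusted p = 0.00253) at 6 h, 0.71 ± 0.10 (adjusted p = 2.89e-05) at 12 h and 0.71 ± 0.10 (adjusted p = 2.22e-05) at 24 h in the hippocampus. For the cortex it was 0.50 ± 0.15 (adjusted p = 0.0739) at 6 h, 0.80 ± 0.15 (adjusted p = 0.00167) at 12 h and 0.77 ± 0.15 (adjusted p = 0.00256) at 24 h. Parp9 and Parp10 had log2 fold changes of 0.59 to 1.32. Their 6 h calls in the hippocampus were lost, for Parp9 without saline A222, saline A224 or LPS A242 (adjusted p up to 0.18) and for Parp10 without saline A222, saline A224, LPS A240 or LPS A241 (adjusted p up to 0.14), as was the 24 h hippocampal call of Parp10 without saline A222, saline A224 or LPS A278 (adjusted p up to 0.0983).

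The next group acts on the virus itself. Mx1 and Mx2 are GTPases that trap viral components, Rsad2 (viperin) makes a chain-ending nucleotide and Cmpk2 makes nucleoside triphosphates it can draw on, Isg20 is an RNA exonuclease, Apobec3 is a cytidine deaminase, Bst2 (tetherin) holds budding virus to the cell, and Ifitm2 and Ifitm3 block membrane fusion. With Samd9l the group has 10 members, of which 5, 9 and 9 were higher at 6, 12 and 24 h in the hippocampus and 4, 8 and 7 in the cortex.

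Ifitm3 (chr7:141009586-141010770, minus strand) read 4.64, 3.61 and 4.76 CPM in saline, 22.1, 23.5, 27.7 and 22.4 at 6 h, 32.7, 33.6, 24 and 30.7 at 12 h and 25.5, 23.1, 24.8 and 30.4 at 24 h in the hippocampus. The cortical libraries read 5.73, 6.56 and 7.21 CPM in saline, 36, 37.6, 50.5 and 30.4 at 6 h, 39.9, 41.9, 40.6 and 55.4 at 12 h and 40.9, 35.7, 39.5 and 49.9 at 24 h. The lowest LPS library was several times the highest saline library in each tissue, and the 6 h libraries overlapped with the 12 h and 24 h libraries. The log2 fold change was 2.46 ± 0.14 (adjusted p = 5.25e-09) at 6 h, 2.80 ± 0.14 (adjusted p = 5.38e-10) at 12 h and 2.58 ± 0.14 (adjusted p = 1.73e-09) at 24 h in the hippocampus. The fold change was 2.56 ± 0.18 (adjusted p = 8.21e-07) at 6 h, 2.76 ± 0.18 (adjusted p = 1.08e-07) at 12 h and 2.66 ± 0.18 (adjusted p = 1.48e-07) at 24 h in the cortex. Ifitm2, its neighbour, had log2 fold changes of 0.53 to 1.14. It was called at 12 h in both tissues and at 24 h in the hippocampus, and the last was lost without saline A222, saline A224 or LPS A276 (adjusted p up to 0.0995) and the cortical call without saline A223, saline A224, saline A226, LPS A259, LPS A260 or LPS A261 (adjusted p up to 0.12). Of its 150-base windows 23.5% also occur in Gm45717.

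Bst2 (chr8:71534255-71537456, minus strand) read 2.11, 1.67 and 2.3 CPM in saline, 6.7, 6.75, 7.75 and 5.72 at 6 h, 8.1, 7.89, 5.52 and 8.82 at 12 h and 8.87, 7.25, 6.64 and 10.7 at 24 h in the hippocampus. Levels in the cortex were 2.01, 2.85 and 2.98 CPM in saline, 8.39, 8.16, 11.5 and 6.35 at 6 h, 7.47, 8.36, 10.2 and 18.6 at 12 h and 13.5, 11.2, 6.82 and 9.71 at 24 h. All LPS libraries exceeded the saline libraries, and cortical A261 was the highest. Against saline, the log2 fold change was 1.73 ± 0.19 (adjusted p = 5.50e-06) at 6 h, 1.90 ± 0.19 (adjusted p = 6.67e-07) at 12 h and 2.04 ± 0.19 (adjusted p = 2.16e-07) at 24 h in the hippocampus. That of the cortex was 1.71 ± 0.36 (adjusted p = 0.0146) at 6 h, 2.09 ± 0.35 (adjusted p = 0.0018) at 12 h and 1.961 ± 0.35 (adjusted p = 0.00335) at 24 h. The cortical 6 h call was lost without saline A223, saline A224, saline A226 or LPS A242 (adjusted p up to 0.0754). Apobec3 was called in all 6 comparisons with log2 fold changes of 1.15 to 1.32. Isg20 was called in the 3 hippocampal comparisons and in the cortex at 6 h (1.63 ± 0.32, adjusted p = 0.00482), where the call was lost without saline A226 (adjusted p = 0.058).

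Rsad2 (chr12:26442746-26456452, minus strand) read 0.658, 0.682 and 1.15 CPM in saline, 1.74, 2.08, 1.43 and 1.82 at 6 h, 4.36, 4.62, 3.01 and 3.76 at 12 h and 2.76, 2.05, 4.25 and 5.73 at 24 h in the hippocampus. Cortical levels were 1.11, 0.971 and 1.29 CPM in saline, 1.84, 3.27, 1.97 and 2.46 at 6 h, 4.1, 5.57, 4.92 and 9.3 at 12 h and 4.87, 4.01, 2.91 and 4.53 at 24 h. LPS and saline ranges were separate at every time, and the 12 h libraries lay above the 6 h libraries in both tissues. Its log2 fold change was 1.10 ± 0.34 (adjusted p = 0.0742) at 6 h, 2.24 ± 0.31 (adjusted p = 6.56e-05) at 12 h and 2.17 ± 0.32 (adjusted p = 8.73e-05) at 24 h in the hippocampus. The change was 1.06 ± 0.32 (adjusted p = 0.0782) at 6 h, 2.38 ± 0.29 (adjusted p = 4.17e-05) at 12 h and 1.83 ± 0.30 (adjusted p = 7.44e-04) at 24 h in the cortex, and neither 6 h value was called.

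Cmpk2 (chr12:26469204-26479837, plus strand), the neighbour of Rsad2 on chromosome 12 on the other strand, read 19.6, 21.6 and 19.1 CPM in saline, 22.3, 21, 20.7 and 23.7 at 6 h, 22.9, 26.3, 23.8 and 21.1 at 12 h and 24, 24.4, 27.8 and 27.7 at 24 h in the hippocampus. Across cortical libraries it read 28.9, 28 and 28.9 CPM in saline, 29.8, 32.2, 32.1 and 31.8 at 6 h, 32, 32.2, 35.2 and 38 at 12 h and 30.4, 32, 32 and 29.6 at 24 h. It was the more abundant of the pair in saline and LPS libraries overlapped with saline in the hippocampus at 6 h and 12 h alone. On the log2 scale, the fold change was 0.13 ± 0.08 (adjusted p = 0.509) at 6 h, 0.23 ± 0.08 (adjusted p = 0.0602) at 12 h and 0.37 ± 0.08 (adjusted p = 0.0018) at 24 h in the hippocampus. The fold change was 0.14 ± 0.07 (adjusted p = 0.306) at 6 h, 0.26 ± 0.07 (adjusted p = 0.0296) at 12 h and 0.11 ± 0.07 (adjusted p = 0.481) at 24 h in the cortex. The cortical 12 h call was lost without saline A223, saline A224, saline A226, LPS A260 or LPS A261 (adjusted p up to 0.157).

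Mx1 (chr16:97447035-97462907, minus strand) and Mx2 carry disrupting mutations in common laboratory strains, and the annotation lists Mx2 as a polymorphic pseudogene, so these values are of transcripts and not of working protein. Mx1 read 0, 0 and 0.115 CPM in saline, 0.303, 0.25, 0.204 and 0.214 at 6 h, 0.987, 1.19, 0.509 and 0.49 at 12 h and 0.63, 0.604, 0.825 and 0.819 at 24 h in the hippocampus. Frontal cortex libraries gave 0.251, 0.182 and 0.219 CPM in saline, 0.217, 0.268, 0.282 and 0.284 at 6 h, 0.944, 1.11, 1.5 and 1.48 at 12 h and 1.1, 0.743, 0.682 and 0.793 at 24 h. All 3 hippocampal saline counts came from A226, while the cortical saline libraries all had counts and overlapped with the 6 h libraries. The hippocampal pooled ratio was 7.09-fold (95% interval 2.13 to 37), 22-fold (95% interval 7.21 to 109) and 21-fold (95% interval 6.87 to 105). Without A226 the ratio against 3 counts over the group was 4.88, 15.1 and 14.5, with 95% intervals from 3.64, 11.97 and 11.42. Without saline A222 the ratios were 4.67, 14.5 and 13.8, and without saline A224 they were 4.62, 14.3 and 13.7. The hippocampal 6 h call was lost without saline A222, saline A224, LPS A240, LPS A241, LPS A242 or LPS A243 (adjusted p up to 0.232). The cortical ratio was 1.22-fold (95% interval 0.598 to 2.54) at 6 h, which was not called. Later it was 6.02-fold (95% interval 3.5 to 11.1) at 12 h and 3.97-fold (95% interval 2.25 to 7.46) at 24 h.

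Mx2 (chr16:97535308-97560900, plus strand) read 0.208, 0.17 and 0.384 CPM in saline, 0.454, 0.667, 0.561 and 0.535 at 6 h, 1.77, 1.59, 0.704 and 0.98 at 12 h and 1.16, 1.3, 0.578 and 1.23 at 24 h in the hippocampus. Its cortical levels were 0.302, 0.364 and 0.627 CPM in saline, 0.812, 0.966, 0.939 and 0.947 at 6 h, 1.31, 1.78, 2.06 and 1.93 at 12 h and 1.39, 0.693, 1.23 and 1.73 at 24 h. LPS libraries lay above saline libraries at every time. The hippocampal pooled ratio was 2.25-fold (95% interval 1.33 to 3.96), 4.98-fold (95% interval 3.1 to 8.38) and 4.36-fold (95% interval 2.69 to 7.37), called at 12 h and 24 h. The cortical log2 fold change was 1.0 ± 0.33 (adjusted p = 0.118) at 6 h, 1.94 ± 0.31 (adjusted p = 4.67e-04) at 12 h and 1.45 ± 0.32 (adjusted p = 0.00793) at 24 h, and the 24 h call was lost without saline A223 (adjusted p = 0.0552). Samd9l was called in the hippocampus at 12 h (0.83 ± 0.19, adjusted p = 0.00493) and in the cortex at 24 h (0.65 ± 0.19, adjusted p = 0.0444), the latter lost without saline A223, saline A224, saline A226, LPS A274, LPS A275 or LPS A278 (adjusted p up to 0.168).

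Schlafen proteins restrain cell division and translation. Of the 3 members, 2, 3 and 3 were higher at 6, 12 and 24 h in the hippocampus and 1, 2 and 2 in the cortex. Slfn5 was called in all 6 comparisons, with log2 fold changes of 1.72 to 2.03 in the hippocampus and 1.15 to 1.34 in the cortex. It shares 559 exon bases with the opposite-strand gene Slfn5os.

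Slfn8 (chr11:83002158-83020810, minus strand) read 0.312, 0.239 and 0.461 CPM in saline, 0.568, 1.04, 0.867 and 0.856 at 6 h, 2.08, 2.88, 1.49 and 0.98 at 12 h and 1.26, 1.63, 1.73 and 2.5 at 24 h in the hippocampus. The cortical libraries read 0.804, 0.425 and 0.407 CPM in saline, 0.974, 0.752, 0.892 and 0.758 at 6 h, 1.89, 1.59, 1.91 and 3.21 at 12 h and 1.91, 1.78, 1.32 and 1.9603 at 24 h. Only the cortical 6 h libraries overlapped with saline. The hippocampal pooled ratio was 2.52-fold (95% interval 1.61 to 4.05) at 6 h, which was not called. Later it was 5.54-fold (95% interval 3.69 to 8.6) at 12 h and 5.56-fold (95% interval 3.7 to 8.63) at 24 h. The cortical log2 fold change was 0.65 ± 0.33 (adjusted p = 0.291) at 6 h, 2.0 ± 0.30 (adjusted p = 2.20e-04) at 12 h and 1.69 ± 0.30 (adjusted p = 0.00146) at 24 h.

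Slfn2 (chr11:83065112-83070678, plus strand) read 2.46, 1.64 and 1.5 CPM in saline, 2.72, 2.71, 3.31 and 3.32 at 6 h, 3.01, 3.97, 2.86 and 3.06 at 12 h and 3.34, 3.35, 3.34 and 4.51 at 24 h in the hippocampus. Levels in the cortex were 3.67, 5.28 and 4.07 CPM in saline, 5.09, 5.58, 6.9 and 6.02 at 6 h, 5.13, 6.1, 4.67 and 7.69 at 12 h and 4.97, 4.51, 4.32 and 5.93 at 24 h. Hippocampal LPS libraries lay above saline, and cortical groups overlapped at all 3 times. Relative to saline, the log2 fold change was 0.68 ± 0.19 (adjusted p = 0.0331) at 6 h, 0.78 ± 0.19 (adjusted p = 0.00558) at 12 h and 0.96 ± 0.18 (adjusted p = 7.37e-04) at 24 h in the hippocampus. The 6 h call was lost without saline A224, saline A226, LPS A242 or LPS A243 (adjusted p up to 0.186). The cortical change was 0.46 ± 0.18 (adjusted p = 0.185) at 6 h, 0.46 ± 0.18 (adjusted p = 0.15) at 12 h and 0.20 ± 0.18 (adjusted p = 0.691) at 24 h, with no call.

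Of the surface and secreted proteins, Ly6a (Sca-1) and Ly6e are lipid-anchored proteins, Lgals9 is a galectin and Lgals3bp a secreted partner of galectins. Of these 4, 2, 3 and 3 were higher at 6, 12 and 24 h in the hippocampus and the same numbers in the cortex.

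Ly6a (chr15:74994877-74998031, minus strand) read 15.2, 14.4 and 13.5 CPM in saline, 46.3, 43.9, 49.4 and 42.3 at 6 h, 38.1, 36.9, 32.4 and 40.5 at 12 h and 38.8, 34.4, 31.9 and 39.7 at 24 h in the hippocampus. Cortical levels were 20.6, 22.9 and 18.8 CPM in saline, 65.6, 58.9, 80.6 and 63 at 6 h, 58.4, 54.5, 46 and 71.9 at 12 h and 64, 57.9, 52.1 and 63.4 at 24 h. LPS libraries were at least as high as 31.9 CPM where saline libraries reached 22.9 CPM at most, and the 6 h libraries were the highest of the hippocampus. The log2 fold change was 1.66 ± 0.09 (adjusted p = 1.49e-11) at 6 h, 1.36 ± 0.09 (adjusted p = 2.56e-10) at 12 h and 1.33 ± 0.09 (adjusted p = 5.61e-10) at 24 h in the hippocampus. Its cortical value was 1.70 ± 0.14 (adjusted p = 1.77e-06) at 6 h, 1.48 ± 0.14 (adjusted p = 2.93e-06) at 12 h and 1.52 ± 0.14 (adjusted p = 2.27e-06) at 24 h. Ly6a is known as a marker of brain endothelium, and summed endothelial markers (6 genes) were at 148 to 157 CPM in hippocampal saline libraries and 129.97 to 140.4, 127 to 156 and 162 to 176 CPM at 6, 12 and 24 h. In the cortex these sums were 179.9 to 209 CPM in saline and 146 to 177, 174 to 219 and 189 to 238 CPM after LPS. Of these 6 genes, 0, 1 and 1 were called higher and 1, 3 and 0 lower at 6, 12 and 24 h in the hippocampus, and 0, 2 and 1 higher in the cortex. Their part in the level of Ly6a was not tested.

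Ly6e (chr15:74955051-74959905, plus strand), which blocks the entry of some viruses, was the most abundant member per length in saline libraries of both tissues. It read 189.7, 202 and 188 CPM in saline, 196, 211, 219.8 and 206 at 6 h, 205, 182, 205 and 189 at 12 h and 195, 190.0, 163 and 199 at 24 h in the hippocampus. Across cortical libraries it read 175, 183 and 196 CPM in saline, 194, 207, 222.6 and 218 at 6 h, 228, 197, 171 and 214 at 12 h and 234, 209, 193 and 200.2 at 24 h. Saline and LPS libraries overlapped at every time in both tissues. Its log2 fold changes ran from -0.05 to 0.19, with adjusted p of 0.269 or more.

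Lgals9 (chr11:78962974-78984946, minus strand) read 2.6, 2.25 and 2.69 CPM in saline, 6.92, 7.63, 7.34 and 5.88 at 6 h, 9.87, 7.99, 7.04 and 9.27 at 12 h and 10.6, 9.44, 10.4 and 14.1 at 24 h in the hippocampus. Frontal cortex libraries gave 3.52, 3.28 and 3.51 CPM in saline, 7.8, 9.77, 9.39 and 9.14 at 6 h, 8.99, 10.1, 15.2 and 18.4 at 12 h and 16.3, 13.4, 9.73 and 11.2 at 24 h. The hippocampal mean was highest at 24 h, and all LPS libraries lay above saline. Against saline, the log2 fold change was 1.47 ± 0.16 (adjusted p = 1.05e-06) at 6 h, 1.76 ± 0.15 (adjusted p = 3.18e-08) at 12 h and 2.15 ± 0.15 (adjusted p = 1.45e-09) at 24 h in the hippocampus. For the cortex it was 1.39 ± 0.24 (adjusted p = 0.00247) at 6 h, 1.93 ± 0.24 (adjusted p = 5.92e-05) at 12 h and 1.87 ± 0.24 (adjusted p = 8.95e-05) at 24 h. Lgals3bp was not called at 6 h, and its hippocampal log2 fold change was 0.91 ± 0.14 (adjusted p = 3.82e-04) at 12 h and 1.39 ± 0.14 (adjusted p = 4.24e-06) at 24 h. In the cortex it was called at both of these times (1.23 and 1.21), and the calls were lost at 12 h without saline A223, saline A224, saline A226 or LPS A260 (adjusted p up to 0.0838) and at 24 h without saline A223, saline A224, saline A226 or LPS A275 (adjusted p up to 0.101).

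The other 10 interferon-induced genes have less settled roles. Of these, 7, 8 and 10 were higher at 6, 12 and 24 h in the hippocampus and 5, 7 and 7 in the cortex. Ifi44 had the largest change and Shisa5, a protein of the endoplasmic reticulum, the smallest.

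Ifi44 (chr3:151730922-151749960, minus strand) read 0.173, 0.17 and 0.154 CPM in saline, 2.95, 3.5, 3.82 and 3.48 at 6 h, 2.8, 3.62, 2.11 and 2.25 at 12 h and 2.76, 1.95, 1.61 and 3.64 at 24 h in the hippocampus. Its cortical levels were 0.452, 0.182 and 0.376 CPM in saline, 3.68, 4.83, 3.57 and 3.6 at 6 h, 2.13, 3.03, 2.01 and 5.39 at 12 h and 4.16, 2.52, 2.09 and 3.08 at 24 h. The lowest LPS library stood at 1.61 CPM and the highest saline library at 0.452 CPM. The hippocampal pooled ratio was 20.8-fold (95% interval 12.2 to 38.6), 16.3-fold (95% interval 9.55 to 30.3) and 15.3-fold (95% interval 8.94 to 28.5) at 6, 12 and 24 h. The cortical one was 11.2-fold (95% interval 7.41 to 17.8), 9.62-fold (95% interval 6.33 to 15.3) and 8.85-fold (95% interval 5.81 to 14.1).

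Shisa5 (chr9:109038565-109057777, plus strand) read 35.4, 34.7 and 36.6 CPM in saline, 42.5, 40.6, 44.3 and 42.1 at 6 h, 45.9, 41.1, 42.8 and 42.5 at 12 h and 45.9, 41.5, 42.4 and 45.6 at 24 h in the hippocampus. The cortical libraries read 59.7, 53.7 and 59.3 CPM in saline, 58.8, 60.9, 67.3 and 62.1 at 6 h, 62.6, 67.2, 59.7 and 64 at 12 h and 66.5, 63.5, 62.5 and 66.2 at 24 h. Hippocampal ranges were separate with a small gap, and cortical ranges overlapped at 6 h and nearly met later. Its log2 fold change was 0.25 ± 0.06 (adjusted p = 0.00617) at 6 h, 0.28 ± 0.06 (adjusted p = 0.00129) at 12 h and 0.30 ± 0.06 (adjusted p = 4.74e-04) at 24 h in the hippocampus. The 6 h call was lost without saline A224 (adjusted p = 0.0568). The change was 0.11 ± 0.07 (adjusted p = 0.346) at 6 h, 0.14 ± 0.07 (adjusted p = 0.256) at 12 h and 0.17 ± 0.07 (adjusted p = 0.171) at 24 h in the cortex, with no call.

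Ifi35 and Sp100, a nuclear body protein, were called in all 6 comparisons, as were Xaf1, an apoptosis factor, and the helicase Helz2. Their log2 fold changes ran from 0.58 to 1.51. Of these 24 calls, 3 were lost when a library was left out. They were Xaf1 in the hippocampus at 6 h without any 1 of its 7 libraries (adjusted p up to 0.287), Ifi35 in the hippocampus at 24 h without saline A222 (adjusted p = 0.0613) and Helz2 in the cortex at 24 h without saline A224 (adjusted p = 0.0574). Nmi, which binds Ifi35, was called in 5 comparisons with values of 0.49 to 0.86. Of these calls 3 were lost when a library was left out, at 6 h in the hippocampus without saline A222, saline A224, saline A226, LPS A241 or LPS A243 (adjusted p up to 0.0915), at 12 h there without saline A222, saline A224, saline A226, LPS A258, LPS A259 or LPS A261 (adjusted p up to 0.0911) and at 24 h in the cortex without saline A223, saline A224, saline A226, LPS A274, LPS A275 or LPS A278 (adjusted p up to 0.154). Tor3a was called at 12 h and 24 h in both tissues (0.51 to 0.85). Ifi27 and Epsti1 were called in 1 comparison each, the hippocampus at 24 h, at 0.31 ± 0.07 (adjusted p = 0.00246) and 1.81 ± 0.36 (adjusted p = 9.46e-04). The call of Ifi27 was lost with the mouse as a replicate block in limma-voom (adjusted p = 0.246) and with both tissues in 1 fit (adjusted p = 0.325). Over pooled counts the ratio of Epsti1 to saline in the hippocampus at 24 h was 3.65-fold (95% interval 2.36 to 5.8).

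Per length of exon, the order of the members changed with LPS. Levels per length are mean CPM divided by the exon bases of the gene in kilobases, and a level compares genes, unlike a fold change. In saline Ly6e had rank 1 in both tissues, at 51.1 CPM per kb in the hippocampus, and Ifitm3 had rank 6 at 6.40 CPM per kb in the hippocampus and 9.59 CPM per kb in the cortex. At 12 h Ifitm3 reached 44.6 CPM per kb in the hippocampus and 65.6 CPM per kb in the cortex, where it had rank 1 at all 3 times after LPS. Ifit3 moved from rank 11 to rank 5 in the hippocampus and from 10 to 4 in the cortex by 12 h.

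**Figure D3:**
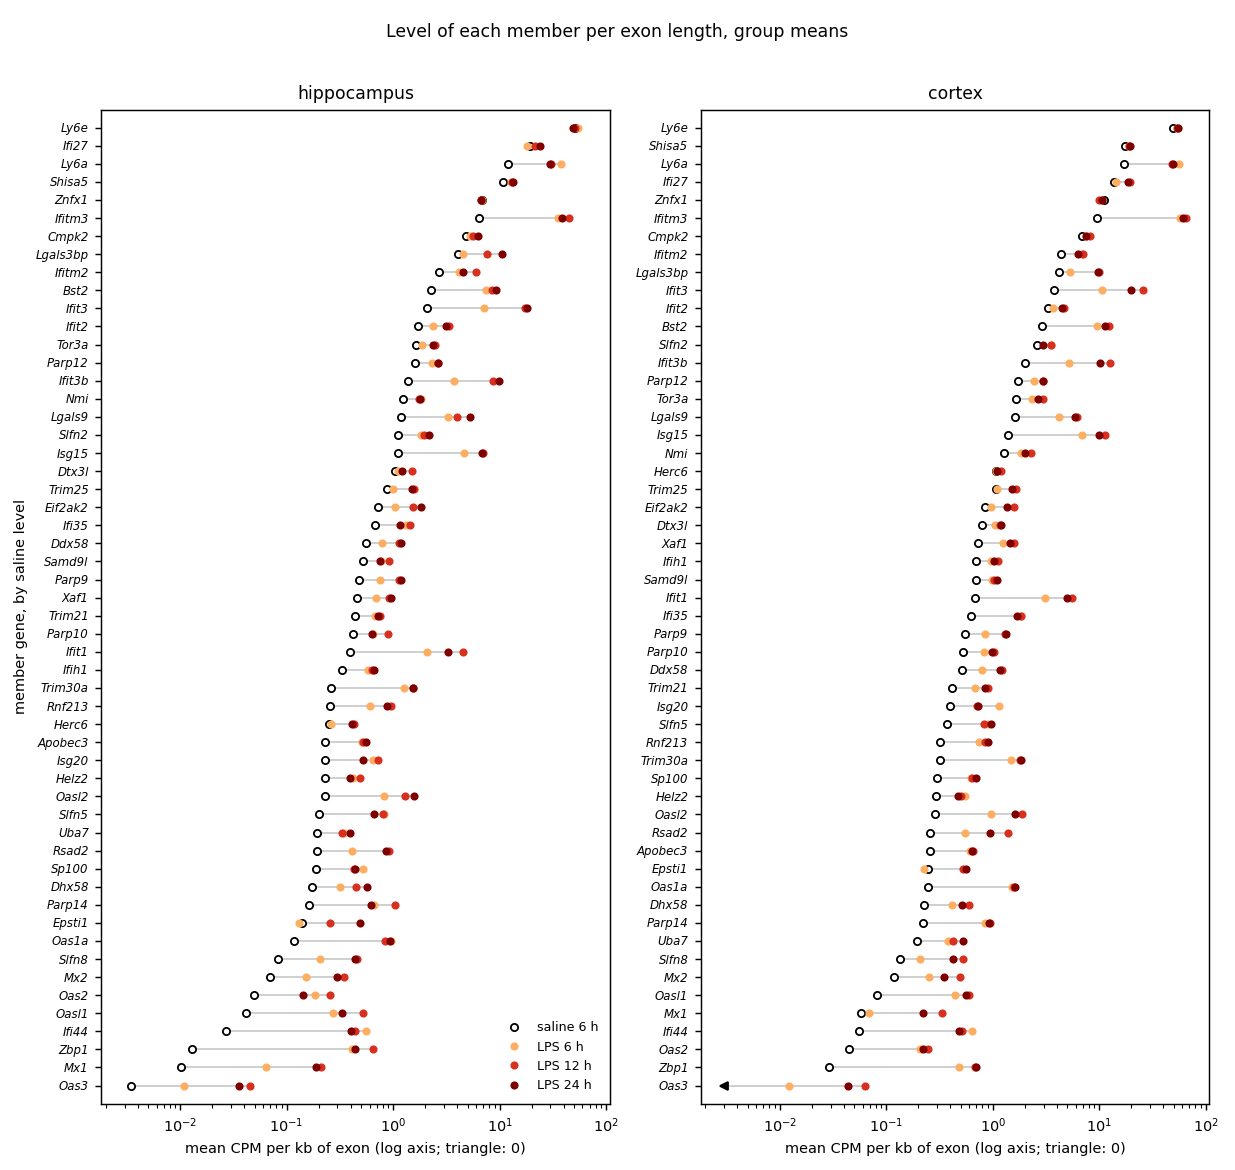
Mean level per length (CPM per kilobase of exon, log axis) of each of the 54 genes in saline and 6, 12 and 24 h after LPS, for each tissue, with a triangle where a group mean is 0. Ly6e lies far to the right in every group, Oas3 lies at the low end, and Ifitm3 moves from 6.40 CPM per kb in hippocampal saline libraries to 44.6 CPM per kb at 12 h.

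Between 6 h and 12 h after LPS, a comparison that uses no saline library, 15 members rose and 1 fell in the hippocampus (1.14% of all genes tested rose and 1% fell) and 6 rose and none fell in the cortex (0.614% and 0.614%). In the hippocampus the largest rises among them were of Mx1 (1.62 ± 0.40, adjusted p = 0.0314), Ifit3 (1.26 ± 0.22, adjusted p = 0.0117), Ifit3b (1.21 ± 0.21, adjusted p = 0.00857), Rsad2 (1.14 ± 0.26, adjusted p = 0.0263), Ifit1 (1.13 ± 0.20, adjusted p = 0.00745) and Lgals3bp (0.74 ± 0.13, adjusted p = 0.00828) on the log2 scale. The others were Herc6, Trim25, Parp9, Eif2ak2, Ddx58, Ifit2, Dtx3l, Tor3a and Ifi27, with rises of 0.27 to 0.70. Ly6a was the one that fell (-0.30 ± 0.07, adjusted p = 0.0277). All 4 IFIT genes were among those that rose. With any 1 library left out, Ifit1, Ifit3, Ifit3b, Trim25 and Lgals3bp kept their call and 11 did not. Mx1 lost it without LPS A240, LPS A241, LPS A242, LPS A243, LPS A258 or LPS A259 (adjusted p up to 0.118), Rsad2 without LPS A240, LPS A241, LPS A242, LPS A243, LPS A258, LPS A259 or LPS A261 (adjusted p up to 0.0863) and Ly6a without LPS A240, LPS A241, LPS A242, LPS A258, LPS A259 or LPS A260 (adjusted p up to 0.108). Ddx58 lost it without LPS A240 (adjusted p = 0.0507), Dtx3l without LPS A240 (adjusted p = 0.0564) and Eif2ak2 without LPS A240 or LPS A259 (adjusted p up to 0.0646). Ifit2 lost it without LPS A240, LPS A241, LPS A242, LPS A258 or LPS A259 (adjusted p up to 0.0873), Herc6 without LPS A240, LPS A241, LPS A242, LPS A243, LPS A258 or LPS A259 (adjusted p up to 0.0774) and Parp9 without LPS A240, LPS A241, LPS A243, LPS A258 or LPS A259 (adjusted p up to 0.106). Ifi27 lost it without LPS A240, LPS A241, LPS A242, LPS A243, LPS A258 or LPS A261 (adjusted p up to 0.102) and Tor3a without LPS A241, LPS A242, LPS A258 or LPS A259 (adjusted p up to 0.0931). The number that rose was 6 to 20 with 1 library left out, and 4 in a limma-voom fit with the mouse as a replicate block. The members that lost their call in that fit were Ddx58 (adjusted p = 0.104), Dtx3l (0.0531), Eif2ak2 (0.106), Herc6 (0.0543), Ifi27 (0.552), Ifit2 (0.111), Lgals3bp (0.131), Mx1 (0.0539), Parp9 (0.15), Rsad2 (0.0828), Tor3a (0.139) and Ly6a (0.182). With both tissues in 1 fit, Lgals3bp had an adjusted p of 0.134.

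In the cortex the 6 that rose were Mx1 (2.23 ± 0.28, adjusted p = 2.88e-04), Slfn8 (1.35 ± 0.25, adjusted p = 0.0131), Rsad2 (1.33 ± 0.24, adjusted p = 0.0118), Ifit3b (1.28 ± 0.24, adjusted p = 0.0212), Ifit3 (1.27 ± 0.22, adjusted p = 0.0146) and Trim25 (0.59 ± 0.13, adjusted p = 0.0323) on the log2 scale. Mx1, Slfn8 and Rsad2 kept their call with any library left out. Ifit3 lost it without LPS A240 or LPS A242 (adjusted p up to 0.0538), Ifit3b without LPS A240, LPS A241, LPS A242, LPS A243 or LPS A260 (adjusted p up to 0.0731) and Trim25 without LPS A240, LPS A241, LPS A242, LPS A243, LPS A260 or LPS A261 (adjusted p up to 0.108). The number that rose was 3 without LPS A240, 3 to 11 over all libraries left out in turn, and 12 in the limma-voom fit with the mouse as a replicate block.

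From 12 h to 24 h no member was called in either direction in the hippocampus (0.885% of all genes tested rose and 1.26% fell) or in the cortex (0% and 0%) by edgeR. At an unadjusted p under 0.05 there were 13 members in the hippocampus and 3 in the cortex. Of all genes tested, 2587 of 17289 and 310 of 17111 were under it. DESeq2 called 1 member higher and 1 lower in the hippocampus. The highest of the 3 LPS means lay at 6 h for 8 members, at 12 h for 25 and at 24 h for 21 in the hippocampus. In cortical tissue these numbers were 7, 35 and 12. The same was not counted over all genes tested, so a peak time particular to the members cannot be read from these numbers. The per-library median of the members' log2 ratios to the saline mean was 0.85 to 1.06 at 6 h, 1.06 to 1.37 at 12 h and 1.17 to 1.52 at 24 h in the hippocampus. In the cortex these medians were 0.72 to 1.02, 1.002 to 1.67 and 0.997 to 1.46 over the 53 members with saline counts, and A261 at 12 h was the highest.

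**Figure D4:**
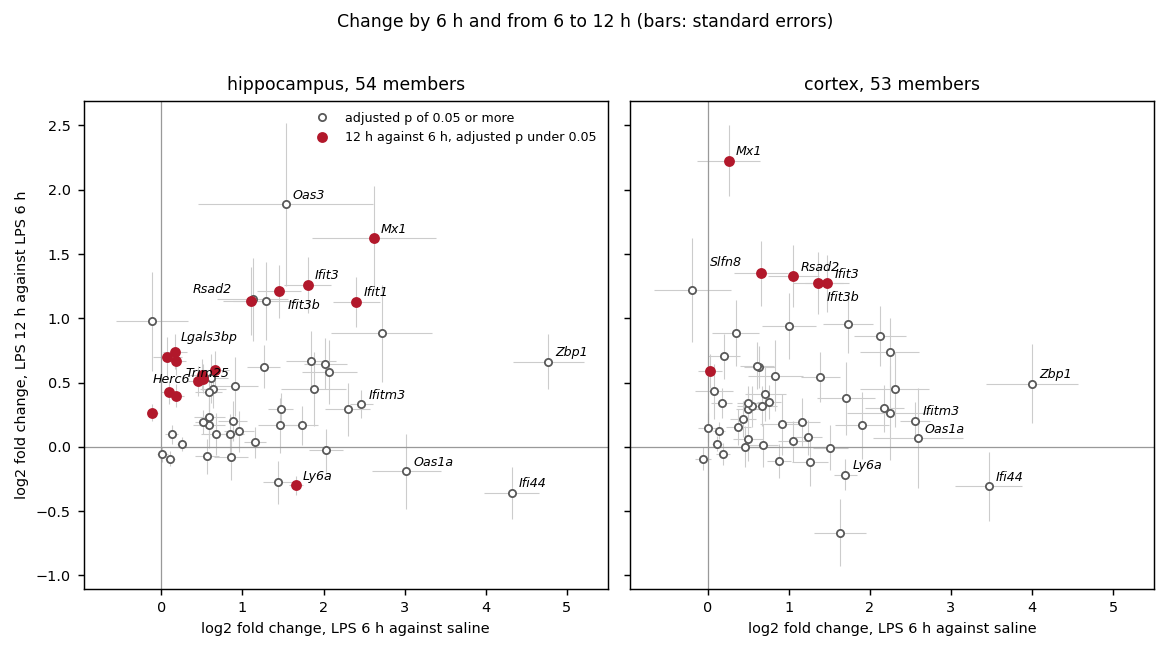
Log2 fold change at 6 h against saline (horizontal axis) and at 12 h against 6 h (vertical axis), 1 point per gene, 54 genes in the hippocampus and 53 in the cortex, with standard errors; red points have an adjusted p under 0.05 for the change from 6 h to 12 h. The axes share the 6 h libraries. Zbp1 and Ifi44 lie far to the right and were not called between 6 h and 12 h, while Mx1, Rsad2, Ifit3 and Ifit3b lie high in both tissues.

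Members with and without an ISRE core in the promoter window are set side by side as a description. In the hippocampus the median log2 fold change of the 14 genes with the core was 1.63, 2.51 and 2.497 at 6, 12 and 24 h, and that of the 28 genes with an entry but no core was 0.59, 0.93 and 0.98. In the cortex the medians were 1.43, 2.43 and 2.13 against 0.52, 0.93 and 0.86. Ifi44, which had no core in this window, lies outside that pattern with a log2 fold change of 4.32 in the hippocampus at 6 h.

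The size of the response was compared between tissues in a fit of all 30 libraries, as the cortical change minus the hippocampal change. No member was called in either direction at 6 h (0% of all genes tested higher in the cortex and 0% lower), at 12 h (0.0567% and 0.0397%) or at 24 h (0.0567% and 0.068%). At an unadjusted p under 0.05 there were 2, 4 and 9 members, against 1031, 1744 and 1484 of the 17650 genes tested. Herc6 had the smallest adjusted p, with a difference of -0.61 ± 0.20 (adjusted p = 0.27) at 12 h and -0.68 ± 0.20 (adjusted p = 0.334) at 24 h. Mx1 had differences of -2.37 ± 0.84 (adjusted p = 0.819), -1.76 ± 0.76 (adjusted p = 0.434) and -2.25 ± 0.77 (adjusted p = 0.414), which rest on the 3 saline counts of hippocampal A226. The median difference over members was −0.08, −0.05 and −0.16, with a median standard error of about 0.30, and the 95% interval lay within a 2-fold difference for 35, 30 and 29 members. For the rest a 2-fold difference between tissues was not excluded by the interval.

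**Figure D5:**
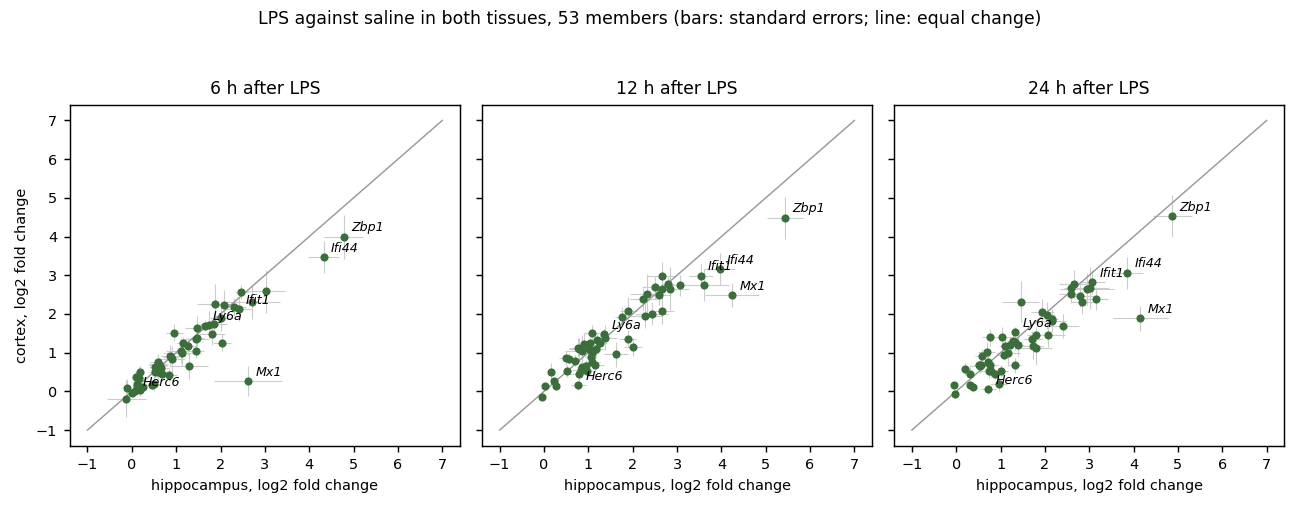
Log2 fold change against saline in the hippocampus (horizontal axis) and the cortex (vertical axis) at 6, 12 and 24 h, 1 point per gene for 53 genes, Oas3 being left out for want of cortical saline counts; the diagonal is the line of equal change. Zbp1 and Ifi44 lie at the upper right in all 3 panels, and Mx1 lies below the diagonal.

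Levels in saline were compared between tissues in the same fit of 30 libraries. Compared with the hippocampus, 15 members were higher in the cortex (17.2% of all genes tested) and 2 lower (19.9%). Herc6 (2.06 ± 0.16, adjusted p = 1.26e-12), Mx1 (2.41 ± 0.71, adjusted p = 0.00697), Slfn2 (1.16 ± 0.20, adjusted p = 2.06e-05), Ifih1 (1.08 ± 0.18, adjusted p = 1.47e-05), Ifit2 (0.90 ± 0.15, adjusted p = 8.44e-06) and Slfn5 (0.88 ± 0.27, adjusted p = 0.0102) had the largest differences on the log2 scale. Ifit3 (0.87 ± 0.34), Xaf1 (0.67 ± 0.17), Znfx1 (0.66 ± 0.09), Shisa5 (0.66 ± 0.06), Ifitm2 (0.65 ± 0.23), Sp100 (0.62 ± 0.22), Ifitm3 (0.56 ± 0.21), Ly6a (0.48 ± 0.13) and Cmpk2 (0.47 ± 0.08) followed. Dtx3l (-0.42 ± 0.14, adjusted p = 0.0129) and Ifi27 (-0.55 ± 0.19, adjusted p = 0.0226) were lower in the cortex. With each saline library left out in turn, 9 of the 17 calls were kept. Ifit3 lost its call without hippocampal saline A222, cortical saline A223, hippocampal saline A224 or cortical saline A226 (adjusted p up to 0.207), Ifitm2 without hippocampal saline A222, hippocampal saline A224, cortical saline A224 or cortical saline A226 (adjusted p up to 0.098) and Ifitm3 without hippocampal saline A222, hippocampal saline A224, cortical saline A224 or cortical saline A226 (adjusted p up to 0.177). Slfn5 lost it without hippocampal saline A224 or cortical saline A226 (adjusted p up to 0.0924), Xaf1 without cortical saline A226 (adjusted p = 0.0519) and Sp100 without hippocampal saline A224, hippocampal saline A226 or cortical saline A226 (adjusted p up to 0.132). Of the lower members, Dtx3l lost it without cortical saline A224 (adjusted p = 0.109) and Ifi27 without cortical saline A223, hippocampal saline A224 or cortical saline A226 (adjusted p up to 0.0701). With the mouse as a replicate block in edgeR, the calls of Mx1 (1.64, adjusted p = 0.224), Ifit3 (0.78, 0.278) and Ifitm2 (0.63, 0.105) were lost. With that block in limma-voom, those of Ifit3 (0.90, 0.0638) and Ifitm3 (0.58, 0.0596) were lost. The value of Mx1 was 5.31 without hippocampal A226, which held its only hippocampal saline counts.

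Of the other genes of the interferon pathway, 26 were found in the table and 21 tested. The hippocampus had 7, 10 and 8 higher at 6, 12 and 24 h, with Irf3 lower at 24 h, and the cortex 8, 10 and 9 higher. Irf7, the factor that amplifies interferon production, had log2 fold changes of 3.39 ± 0.27, 3.55 ± 0.27 and 3.78 ± 0.26 in the hippocampus. Its cortical values were 2.99 ± 0.39, 3.21 ± 0.39 and 3.03 ± 0.39. Irf9, the DNA-binding subunit of the complex that acts on the ISRE, had 0.74 ± 0.13, 1.15 ± 0.12 and 1.35 ± 0.12 in the hippocampus. Cortical values of Irf9 were 0.98 ± 0.18, 1.45 ± 0.18 and 1.26 ± 0.18, and all 6 were called. Usp18, which removes ISG15 and damps receptor signalling, was 1.23 ± 0.32, 2.53 ± 0.29 and 2.34 ± 0.29 in the hippocampus. Cortical Usp18 was 1.37 ± 0.38 (adjusted p = 0.0599), 2.48 ± 0.36 and 2.11 ± 0.36. The interferon genes among these 26 had few counts or none at this depth, and other interferon genes are not described here. Ifnb1 had 3 counts in the hippocampal LPS 12 h libraries, 1 in the cortical LPS 6 h libraries and 0 elsewhere, Ifna4 had 1 count in all, and Ifng, Ifnl2 and Ifnl3 had none.

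Summed markers of other cell types differed between the groups as follows. The summed level of 7 microglial markers was 190.2 to 239.9 CPM in hippocampal saline libraries, 176 to 214 CPM at 6 h, 233 to 252 CPM at 12 h and 338 to 371 CPM at 24 h. In the cortex it was 188 to 237, 154 to 214, 248 to 427 and 270.4 to 385 CPM, and A261 at 12 h, the library with the highest median member ratio, had the highest sum (427 CPM). At 6 h microglial sums overlapped with or fell below saline in both tissues. The sum of 6 neutrophil markers went from 0.104 to 0.239 CPM in hippocampal saline libraries to 7.15 to 8.88 CPM at 6 h, and from 0 to 1.16 CPM to 14.7 to 19.5 CPM in the cortex, with Ly6g at 0 in hippocampal libraries at 6 h. At 24 h it was 2.42 to 8.79 CPM and 6.17 to 10.2 CPM. The sum of 4 monocyte markers went from 1.23 to 2.08 CPM in saline to 4.01 to 5.35 CPM at 6 h in the hippocampus and from 2.06 to 3.02 CPM to 7.31 to 10.7 CPM in the cortex. All 3 neutrophil markers tested in the hippocampus were called higher at each time. In the cortex 3, 4 and 2 of the 4 tested were called higher at 6, 12 and 24 h. Of the monocyte markers tested, 1 of 2 in the hippocampus and 2 of 3 in the cortex were called higher at each time. Of the 7 microglial markers, 1, 2 and 7 were called higher at 6, 12 and 24 h in the hippocampus and 0, 2 and 3 in the cortex. Summed astrocyte markers (5 genes) were at 2027 to 2247 CPM in hippocampal saline libraries and 2260.25 to 2782 CPM at 12 h. Of these 5, 2 were called higher at 12 h and 24 h in both tissues, and 1 lower at both times in the hippocampus. Summed oligodendrocyte markers (4 genes) were at 1847 to 2195 CPM in hippocampal saline libraries and 2142 to 2673 CPM at 24 h, with 3 of the 4 called higher. The part of these cells in the members' levels was not tested.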

How the data were processed

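Poly(A)-selected stranded libraries were sequenced as paired 150 bp reads on a NovaSeq instrument, per the labels' protocols. The authors deposited a table of whole-number counts of reads by gene, with 30 libraries as columns. The submitters' processing notes name the build GRCm38 (mm10) and the tools STAR 2.6.0a, Trim Galore 0.4.1, DESeq2 and FastQC. Which program counted reads, with which strand setting and gene models, is not given in the sources used here, so reads of near copies and overlapping genes may have been divided or dropped. Of 48820 Ensembl identifiers, 48058 had a symbol in GENCODE vM21, the source of gene coordinates (GRCm38, counted from 1), and the rest held at most 0.290% of a library. Per the labels, 1 hippocampal saline library had been excluded. It was not analysed here.

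Groups follow the labels. Totals of 16826882 to 33034295 counts set the precision. edgeR 4.0.16 (R 4.3.3; TMM, robust glmQLFit, glmQLFTest, and filterByExpr set to 10 counts at least and 15 in total) was fitted to the 15 libraries of each tissue (17289 hippocampal and 17111 cortical genes), and to all 30 (17650 genes) for differences between tissues, 14 comparisons in all. Tests are two-sided, with p adjusted by Benjamini-Hochberg over all genes of a comparison. Standard errors are the log2 fold change over the root of the F statistic. The steps were tested on simulated counts.

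Members with at most 30 saline counts carry ratios of pooled counts per pooled total with exact 95% intervals, and 3 counts stand in for 0. Intervals cover counting error alone. A ratio against 3 counts does not cover the counting error of the LPS libraries. Values in every library are given for the members with the largest and smallest mean change of each role group and for 16 members always named. The 54 members, role groups, marker and pathway lists and these rules were chosen with earlier results of these data known. A pathway gene that the rules name is not reported here.

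Mouse codes pair the tissues, since 14 of 16 mice gave both. Over 13592 genes, the 2 tissues' deviations from their group means had a median correlation of 0.104 (-0.0617 to 0.293), above 0.1 in 7 of 14 pairs. Alternatives were DESeq2 1.42.0, limma-voom (limma 3.58.1) with and without the mouse as a replicate block, other scalings and filters, a 2-fold minimum, fits of 2 groups or of both tissues, and libraries left out.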

Additional observations from a re-analysis of the deposited data

Results flagged for a closer look

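Within groups of 4 libraries, 15 of the 174 groups tested for the members given in every library had a highest or lowest library set apart from the other 3 by Dixon's criterion at the 95% level. Chance alone flags about 1 in 20 groups, which is 8.7 of 174. In the cortex at 12 h, A261 was set apart upwards for Isg15 (14.1 CPM), Ifitm3 (55.4 CPM) and Oas1a (5.88 CPM), and A258 was set apart downwards for Oas3 (0.0821 CPM). In the cortex at 6 h, Zbp1 was set apart upwards in A242 (2.63 CPM), Ifi44 in A241 (4.83 CPM) and Oas3 in A243 (0.189 CPM), and Cmpk2 downwards in A240 (29.8 CPM). Ifih1 was set apart downwards in cortical A276 at 24 h (6.68 CPM).

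In the hippocampus at 24 h, A278 was set apart upwards for Ifit1 (11.9 CPM), Parp14 (7.42 CPM) and Slfn2 (4.51 CPM). At 6 h there, the library set apart was the lowest for Ifit1 (A242, 4.94 CPM), Ifit3 (A240, 11.5 CPM) and Oas2 (A243, 0.535 CPM). The calls of Ifit1, Isg15, Ifitm3 and Zbp1 against saline were kept with each library left out in turn.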

How the results depend on the processing

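None of the 285 called member values changed direction under any setting that was run. DESeq2 ended 1 of the 285 calls, limma-voom 12, limma-voom with the mouse as a replicate block 25, no filter 11, library totals alone 1, and a 2-fold minimum 92. Without hippocampal A222 and A261, 20 of 167 calls were lost, and without cortical A240, 7 of 135. With both tissues in 1 fit 14 of 268 were lost, and with only the 2 groups compared 7 of 264. DESeq2 size factors and a stricter filter ended none. edgeR with the mouse as a replicate block ended 3 of the 17 calls between saline tissues, those of Mx1, Ifit3 and Ifitm2. Over 1994 pairs of a call and a left-out library, the call was lost in 244. The cause of these losses was not tested.

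For LPS against saline, the number of members higher moved by over 1.5 times in the hippocampus at 6 h, from 35 to 22 with a 2-fold minimum. With 1 library left out it was 24 to 32 (hippocampus 6 h), 46 to 50 (12 h), 45 to 51 (24 h), and in the cortex 19 to 27, 36 to 44 and 33 to 42.

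For hippocampal LPS 12 h against 6 h, 15 members higher became 23 without a filter, 5 with a 2-fold minimum, 4 under the limma-voom replicate block, 8 with both tissues in 1 fit and 6 to 20 with 1 library left out. The 1 lower member became 0 with library totals alone, a 2-fold minimum, the replicate block or both tissues in 1 fit, and 0 to 1 with 1 library left out. For 24 h against 12 h there, 0 higher became 3 without a filter and 1 with DESeq2, limma-voom or a fit of the 2 groups, and 0 lower became 2 without a filter, 1 with DESeq2 and 0 to 1 with 1 library left out. For cortical LPS 12 h against 6 h, 6 higher became 12 with DESeq2, 12 under the limma-voom replicate block, 13 with both tissues in 1 fit, 3 without A240 and 3 to 11 with 1 library left out. Between saline tissues, 15 higher became 4 with a 2-fold minimum and 10 to 15 with 1 library left out, and 2 lower became 1 without a filter, 0 with a 2-fold minimum and 1 to 2 with 1 library left out. The replicate block changed no other count by over 1.5 times.

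Depth limits the members with few saline counts, such as Oas3, Mx1 and Zbp1. In the hippocampus these had 2, 3 and 4 saline counts in all and passed the filter through LPS libraries, where they were high. Oas3, with no saline count in the cortex, passed it there in the same way. Saline libraries at 6 h alone leave the collection time of the 12 h and 24 h comparisons unmatched.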
